A study of Mus musculus with 58 samples.

Results

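Transcripts of B cells, plasma cells, T cells, natural killer (NK) cells and plasmacytoid dendritic cells were followed in libraries of sorted liver macrophages and monocytes, which by their labels hold none of these cell types. The set was a list of 32 genes, of which 31 had a row among the 25307 genes of the deposited table: 9 B and plasma cell genes, 15 of 16 T and NK cell genes (Cd3e had no row) and 7 genes used as plasmacytoid markers. The genes were listed by name, as known markers, and were selected on their normalized counts in earlier results of these same libraries, so their differences between groups describe these libraries and support nothing about the choice. The 58 libraries came from livers of 129SV mice: 19 of monocytes (Mo), 19 of monocyte-derived macrophages (MoMF) and 20 of Kupffer cells (KC), the macrophages that reside in the liver sinusoids. Each cell type came from 5 groups: common bile duct ligation, which blocks bile flow, for 2 weeks (CBDL2w, labelled onset of cholestatic injury) or for 6 weeks (CBDL6w, labelled advanced injury), advanced injury with an acute colitis added (CBDL+DSS), acute colitis alone (DSS; dextran sulfate sodium is the usual agent under that abbreviation), and controls at 6 weeks (Sham6w). The labels give no time for the DSS and CBDL+DSS groups, and the controls are the 6-week ones, so that CBDL2w was set against controls of another time. Groups held 4 libraries each except Mo Sham6w and MoMF Sham6w with 3. The labels join 2 or 3 replicate numbers in 9 libraries (3 Mo, 4 MoMF, 2 KC), and they do not say whether unjoined libraries came from separate animals, so the spread between libraries may be partly technical. How the cells were gated is not given in the sources used here.

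B cells carry an antigen receptor built from immunoglobulin chains and the signalling pair Cd79a and Cd79b, and after activation they can become plasma cells, which secrete the same chains in bulk. The J chain, encoded by Jchain, links immunoglobulin A or M units into the polymers that are carried across epithelia into bile and the gut. NK cells, which are plentiful in the liver, and cytotoxic T cells kill through granules filled with perforin (Prf1) and granzymes (Gzma, Gzmb), while T cells are told apart by the CD3 chains and the T cell receptor. Plasmacytoid dendritic cells are sources of type I interferon, their identity depends on the E protein Tcf4, and Siglech and Ccr9 are markers of the mouse cells.

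Promoter sequences are shown for a well-read gene of each class (Siglech, Jchain and Gzma) and for Ccr9. E proteins such as Tcf4 bind E-boxes, and a link between E-boxes and the levels of these genes was not tested. The windows run from 250 bases before to 50 bases after the RefSeq start site on GRCm38.p6, are written 5′ to 3′ on the gene's strand, and have in capitals each match to the E-box CAGGTG or its reverse complement CACCTG.
Siglech, chr7:55767934-55768233, plus strand: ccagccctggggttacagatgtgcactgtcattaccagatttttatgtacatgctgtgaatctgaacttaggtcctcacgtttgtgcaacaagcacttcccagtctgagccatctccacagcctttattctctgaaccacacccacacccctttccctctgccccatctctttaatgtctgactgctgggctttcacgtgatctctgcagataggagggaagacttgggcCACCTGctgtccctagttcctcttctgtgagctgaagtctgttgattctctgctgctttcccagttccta
Ccr9, chr9:123766961-123767260, plus strand: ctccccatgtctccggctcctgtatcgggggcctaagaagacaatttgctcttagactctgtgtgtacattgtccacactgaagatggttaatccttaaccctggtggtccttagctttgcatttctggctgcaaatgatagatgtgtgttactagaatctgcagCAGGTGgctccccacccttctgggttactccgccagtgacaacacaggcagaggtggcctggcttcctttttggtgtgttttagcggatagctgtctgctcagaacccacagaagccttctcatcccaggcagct
Jchain, chr5:88527848-88528147, minus strand: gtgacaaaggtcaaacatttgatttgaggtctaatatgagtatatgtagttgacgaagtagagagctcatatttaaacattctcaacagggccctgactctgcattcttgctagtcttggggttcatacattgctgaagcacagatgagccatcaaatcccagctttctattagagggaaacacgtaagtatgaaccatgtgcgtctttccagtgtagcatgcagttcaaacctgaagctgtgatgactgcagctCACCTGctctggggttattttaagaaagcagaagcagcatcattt
Gzma, chr13:113100932-113101231, minus strand: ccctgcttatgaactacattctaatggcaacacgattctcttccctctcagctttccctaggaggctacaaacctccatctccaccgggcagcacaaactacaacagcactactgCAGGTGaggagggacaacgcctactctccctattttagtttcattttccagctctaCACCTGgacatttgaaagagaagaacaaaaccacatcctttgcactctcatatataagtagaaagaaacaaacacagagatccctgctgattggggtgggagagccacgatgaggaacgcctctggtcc

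Counting the start site as 0, the match began at base -20 in Siglech, -85 in Ccr9 and 5 in Jchain, and Gzma had matches at -135 and -79. Of the 32 genes, 19 had a promoter entry in RefSeq, and 11 of these held the E-box on either strand: 2 of 2 B and plasma genes, 6 of 13 T and NK genes and 3 of 4 plasmacytoid genes (Ccr9, Klk1 and Siglech). The genes shown above are all among these 11. The same letters stood in 6640 of 32851 windows of all genes, or 20.2%. That share is by window, while the members were counted by gene with a match in any window, so the shares are not alike. The octamer ATGCAAAT or its reverse complement ATTTGCAT, the motif known from immunoglobulin promoters, stood in 0 of the 19 genes, against 1.74% of all windows, and no immunoglobulin gene of the set had an entry. A match is a string of letters and was not tested as a binding site.

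Levels are normalized counts: reads of a gene divided by 1 size factor per library, from a kit that sequences the 3' end of each transcript and tags molecules, so that levels of different genes can be read side by side as molecules. Libraries held 118687 to 521954 reads and 8885 to 13360 genes with a read. The shallowest was MoMF Sham6w replicate 1+2+5, with 118687 reads, in which a single read is worth 2.48 normalized counts. Over all 58 libraries the set ranged from 5 reads (Cd3g) to 11193 reads (Tcf4), with 1745 for Igkc, 865 for Jchain, 659 for Ighm, 524 for Siglech and 510 for Gzma. Labels and markers went together: the monocyte gene Ly6c2 averaged 153 ± 76.4 in Mo, 9.16 ± 6.63 in MoMF and 2.55 ± 3.4 in KC libraries, and the Kupffer gene Clec4f averaged 12.1 ± 10.4 in Mo, 24.0 ± 30.0 in MoMF and 204 ± 135 in KC libraries (SD, n = 19, 19 and 20). In these bulk libraries fewer cells of a type and less RNA per cell cannot be told apart.

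**Figure D1:**
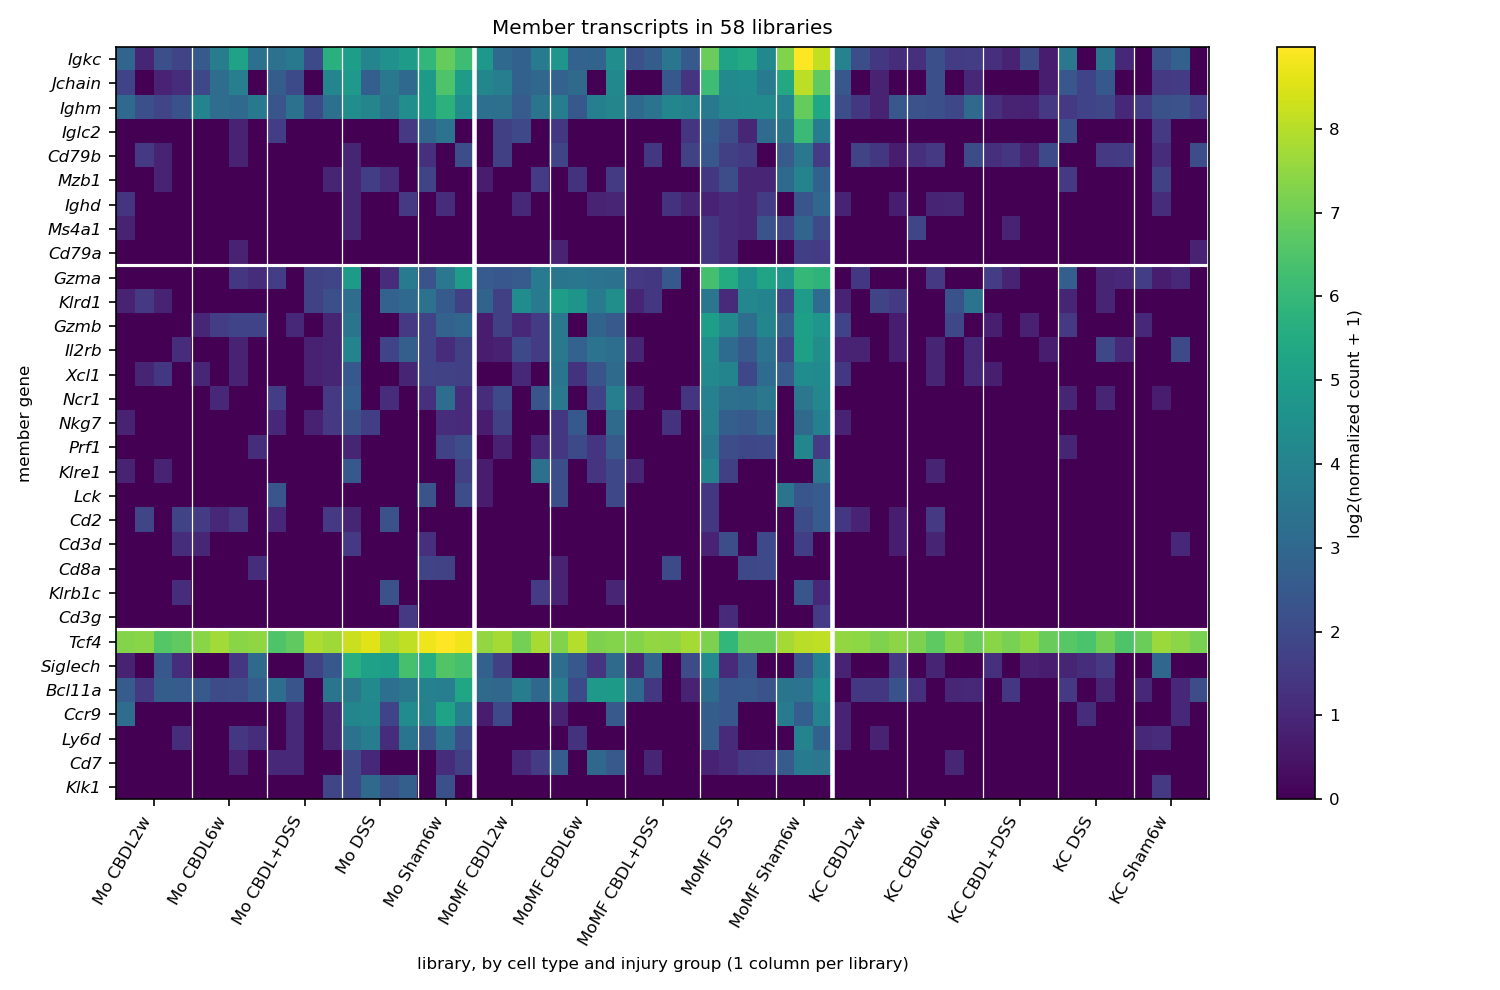
Normalized counts, shown as log2(value + 1) by colour, of the 31 listed genes (rows, by class) in the 58 libraries (columns, by cell type and injury group). Tcf4 is filled in all libraries, Igkc, Jchain and Ighm are brightest in MoMF Sham6w and Mo Sham6w, the granzymes in MoMF DSS and MoMF Sham6w, and Siglech in Mo DSS and Mo Sham6w.

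The classes were spread unevenly over the sorted fractions. B and plasma genes summed to 55.2 ± 63.8 normalized counts in Mo, 133 ± 237 in MoMF and 9.58 ± 6.43 in KC libraries (SD, n = 19, 19 and 20). T and NK genes summed to 17.4 ± 21.8 in Mo, 72.6 ± 71.0 in MoMF and 3.86 ± 3.49 in KC libraries. Plasmacytoid genes other than Tcf4 summed to 43.9 ± 52.6 in Mo, 20.6 ± 17.8 in MoMF and 2.40 ± 2.22 in KC libraries. The spread was as wide as the mean or nearly so in Mo and MoMF, where the injury groups stood far apart. Without MoMF Sham6w replicate 3 the mean B and plasma sum in MoMF was 84.65.

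**Figure D2:**
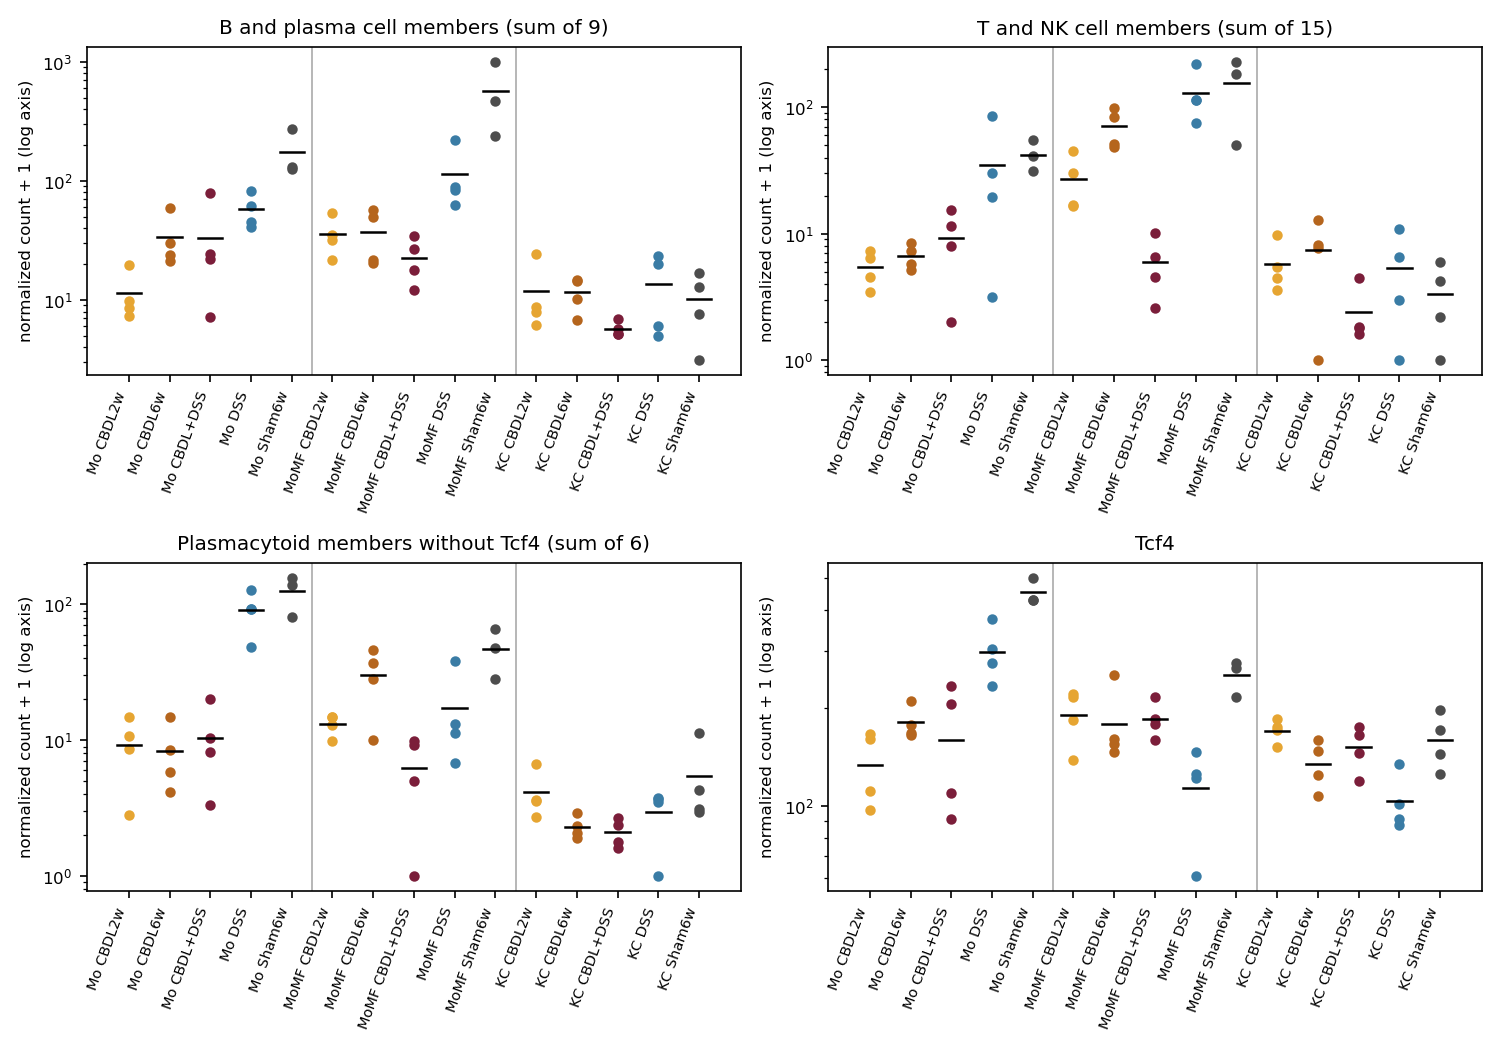
Summed normalized counts of the B and plasma genes, the T and NK genes, and the plasmacytoid genes without Tcf4, 1 point per library, with bars for the group means. MoMF Sham6w libraries stand highest for B and plasma genes (235 to 995), MoMF Sham6w and MoMF DSS for T and NK genes, and Mo Sham6w and Mo DSS for plasmacytoid genes.

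Averaged over the injury groups with equal weight, 11 of the 14 genes that passed the filter (10 or more normalized counts in 3 or more libraries) were higher in Mo than in KC libraries and none was lower, at a Benjamini-Hochberg adjusted p under 0.05 in limma, against 19.6% of all genes tested that were higher. Between MoMF and KC libraries 13 of the 14 were higher, against a background of 14.5%, and the other one was Ly6d. Genes with few reads could pass this filter only through the groups where they were high, so these counts describe the 14 and not the whole set. Igkc, the constant part of the kappa light chain, averaged 28.9 in Mo, 80.2 in MoMF and 3.38 in KC libraries, a log2 difference of 2.40 ± 0.32 (SE, adjusted p = 1.17e-08) for Mo against KC and 3.06 ± 0.32 (adjusted p = 2.31e-11) for MoMF against KC. Gzma, a granzyme of NK and T cell granules, averaged 5.54 in Mo, 22.4 in MoMF and 0.872 in KC libraries, and the difference for MoMF against KC was 3.04 ± 0.31 (adjusted p = 1.1e-11).

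Averaged over the injury groups, the fraction with the higher level differed by class: Mo for Siglech and Tcf4, and MoMF for the T and NK genes tested. Of the 14 genes, 8 were called between these fractions, against 14.7% of all genes called in either direction. Siglech, a surface lectin of plasmacytoid dendritic cells, averaged 25.7 in Mo and 4.36 in MoMF libraries (log2 difference 1.18 ± 0.37, adjusted p = 0.0214 in limma), and Tcf4 was also higher in Mo (0.30 ± 0.11, adjusted p = 0.0497). The higher Siglech level in Mo was seen only without ligation, since ligated libraries lay at or below 7.57 in Mo and 8.58 in MoMF. In CBDL6w the plasmacytoid genes without Tcf4 summed to 4.8, 3.13, 7.45 and 13.88 in Mo, against 27.47, 9.05, 35.93 and 45.48 in MoMF. The transcription factor Bcl11a made up 12.88, 3.02, 27.14 and 28.43 of these MoMF sums. Siglech in CBDL6w stood at 0, 0, 1.66 and 7.57 in Mo and at 8.58, 4.52, 1.6 and 7.58 in MoMF. All 6 T and NK genes tested were lower in Mo than in MoMF: Gzma by a log2 difference of -2.11 ± 0.32 (adjusted p = 1.13e-06), the NK receptor chain Klrd1 by -1.63, the interleukin receptor chain Il2rb by -1.45, the NK receptor Ncr1 by -1.30, Gzmb by -1.19 and the chemokine Xcl1 by -1.15. The immunoglobulin genes did not pass, with Igkc at -0.66 ± 0.33 (adjusted p = 0.185). edgeR on the recovered reads called 4 of the 14 in this comparison instead of 8, where its background was 13.2%.

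Within the B and plasma class, immunoglobulin genes and Jchain made up most reads in Mo and MoMF. Gene levels do not tell secreted from membrane chains. Igkc held 47.41% of the class in Mo (466 of 983 reads) and 50.31% in MoMF (1201 of 2387 reads), followed by Jchain and Ighm, the heavy chain of immunoglobulin M. The membrane genes of B cells were close to 0: Cd79a had 10 reads and Ms4a1 (CD20) 23 reads over all 58 libraries, and Cd79b, the most abundant of them, reached 10.9 at most, in MoMF Sham6w replicate 3. Further low members of the class were also highest in MoMF Sham6w: the secretory chaperone Mzb1 at 7.43, 15.2 and 5.89, and Ighd, the heavy chain of immunoglobulin D, at 6.87 or less. The members other than immunoglobulins and Jchain summed to 14.9, 34.8 and 12.8 in the MoMF Sham6w libraries, to 3.78 to 9.71 in MoMF DSS and to 0 to 3.43 in the 12 MoMF libraries from ligated mice. Among the other B cell genes (14 in the table), Bank1 and Cd22 were lower in MoMF and in Mo than in KC libraries (Bank1 averaged 4.63 in Mo, 16.5 in MoMF and 61.4 in KC), so that these 2 genes did not follow the immunoglobulins.

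In MoMF the light chain gene Igkc was lower in each injury group than in Sham6w, while Jchain and Ighm passed in some of the groups. Igkc stood at 26.4, 7.45, 5.88 and 11.9 in MoMF CBDL2w, at 24.9, 6.03, 6.39 and 19.9 in CBDL6w, at 3.68, 5.32, 10.6 and 4.81 in CBDL+DSS and at 119, 35.5, 43.5 and 17.5 in DSS, against 154, 503 and 285 in Sham6w. Every library from an injured group was below the lowest Sham6w library. The log2 differences from Sham6w were -4.55 ± 0.60 for CBDL2w (adjusted p = 9.9e-05), -4.44 for CBDL6w (0.000393), -5.40 ± 0.60 for CBDL+DSS (5.49e-06) and -2.69 for DSS (0.0232), all from limma. These 4 comparisons share the same 3 control libraries. The DSS call was lost without Sham6w replicate 3 or DSS replicate 2, 3 or 5+6 (adjusted p of 0.0536 to 0.0782 in limma), and the others passed without any single library.

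Jchain ran along a similar range in MoMF. It stood at 16.4, 13.4, 5.88 and 6.97 in CBDL2w, at 6.01, 7.54, 0 and 17.1 in CBDL6w, at 0, 0, 4.52 and 1.6 in CBDL+DSS and at 72.4, 18.9, 19.9 and 11.6 in DSS, against 42.1, 270.5 and 110.0 in Sham6w. DSS replicate 1 lay inside the Sham6w range, and the other injured libraries lay below it. The differences were called for CBDL2w (-3.33 ± 0.83, adjusted p = 0.0263), CBDL6w (-4.25, 0.00731) and CBDL+DSS (-5.81 ± 0.83, 9.18e-05), and that of DSS was -2.13 (0.178). Ighm averaged 8.15 ± 2.23 in CBDL2w, 11.8 ± 5.03 in CBDL6w, 12.0 ± 4.22 in CBDL+DSS and 16.1 ± 3.19 in DSS, against 14.9, 114 and 40.3 in the Sham6w libraries, so that the groups overlapped through the first control library for CBDL6w, CBDL+DSS and DSS. It passed for CBDL2w (-2.24, adjusted p = 0.017) and CBDL+DSS (-1.76, 0.0347). Without Sham6w replicate 3 neither Ighm call remained (adjusted p of 0.0722 for CBDL2w and 0.187 for CBDL+DSS), and nor did the Jchain call for CBDL2w (0.0781). Both CBDL2w calls were also lost without CBDL2w replicate 3, those of Jchain in CBDL2w and of Ighm in CBDL+DSS without Sham6w replicate 4+6, that of Jchain without CBDL2w replicate 4, and that of Ighm in CBDL+DSS without CBDL+DSS replicate 1 or 2.

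Summed, the B and plasma genes of MoMF reached 6.1% of the Sham6w mean in CBDL2w, 6.41% in CBDL6w, 3.83% in CBDL+DSS and 19.93% in DSS. MoMF Sham6w replicate 3 held the highest sum of all libraries (995), and without it these shares were 9.82%, 10.33%, 6.17% and 32.11%. Kupffer cell genes were on average also highest in these controls: the 9-gene Kupffer list, all 9 detected, summed to 131 ± 51.2 in MoMF CBDL2w, 268 ± 231 in CBDL6w, 218 ± 92.2 in CBDL+DSS and 113 ± 28.2 in DSS, against 698 ± 420 in Sham6w (213 to 950.5). The part of these cells in the immunoglobulin difference was not tested. KC libraries themselves held Igkc at 3.38 ± 4.04 (SD, n = 20) and no more than 14.8 in any library.

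Mo libraries showed lower immunoglobulin levels after ligation. Igkc stood at 6.56, 0.9, 3.52 and 2.54 in Mo CBDL2w, at 4.8, 12.5, 34.8 and 8.84 in CBDL6w, at 9.45, 11.2, 3.09 and 51.5 in CBDL+DSS and at 30.9, 16.1, 22.1 and 29.4 in DSS, against 60.4, 115 and 71.6 in Sham6w. No library of an injured group reached the lowest Sham6w library. The log2 differences were -4.36 ± 0.65 for CBDL2w (adjusted p = 0.000118), -2.64 for CBDL6w (0.0103) and -2.64 for CBDL+DSS (0.0111), and DSS at -1.69 did not pass (0.168, limma). Jchain followed, with 1.15 ± 1.02 in CBDL2w, 6.12 ± 5.88 in CBDL6w, 6.15 ± 7.08 in CBDL+DSS and 12.7 ± 9.94 in DSS, against 28.9, 90.5 and 30.2 in Sham6w, and it passed in the 3 ligated groups. Ighm passed in the same 3 groups, with -2.67 ± 0.45 for CBDL2w (0.000286), -1.53 for CBDL6w (0.0284) and -2.25 for CBDL+DSS (0.00215). Without Sham6w replicate 3+6 the calls of Igkc and Jchain in CBDL6w and CBDL+DSS and of Ighm in CBDL6w were lost, with an adjusted p of 0.0602 to 0.183. Ighm in CBDL6w was also lost without Sham6w replicate 1+2+5 or CBDL6w replicate 2 or 3, and Jchain without CBDL6w replicate 4 in CBDL6w and without CBDL+DSS replicate 4+5 in CBDL+DSS. The summed class was at 5.96% of the Sham6w mean in Mo CBDL2w, 18.7% in CBDL6w, 18.41% in CBDL+DSS (9.69% without CBDL+DSS replicate 6) and 32.44% in DSS.

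Immunoglobulin A, whose gene Igha was not on the list, held the largest share of heavy chain reads in MoMF and in Mo when all groups were added up, but not in every group. Igha made up 54.61% of 608 heavy chain reads in Mo, 70.67% of 1432 in MoMF and 44.0% of 125 in KC libraries. In MoMF its share was 63.11% of 122 reads in CBDL2w, 53.72% of 121 in CBDL6w, 13.56% of 59 in CBDL+DSS and 77.64% of 322 in DSS, against 75.74% of 808 in Sham6w. In MoMF CBDL+DSS, with the fewest heavy chain reads of the MoMF groups, Ighm took 81.36%. In Mo the share of Igha was 30.0% of 30 reads in CBDL2w (Ighm 63.33%), 44.83% of 87 in CBDL6w (Ighm 48.28%), 67.82% of 87 in CBDL+DSS and 58.08% of 167 in DSS, against 54.01% of 237 in Sham6w. In KC libraries Ighm led with 48.8% when all groups were added up. Igha led in KC DSS (77.14% of 35 reads, Ighm 22.86%), and both were at 42.42% of 33 reads in KC CBDL2w. In the other KC groups Ighm led, with 73.91% of 23 reads in CBDL6w, 58.33% of 12 in CBDL+DSS and 68.18% of 22 in Sham6w. Kappa chains were 87.43% of light chain reads in Mo and 87.54% in MoMF, and per 100 reads of Igkc there were 50.21 of Jchain in Mo and 50.12 in MoMF. Reads of Iglc2 may be shared with its near-identical copies Iglc1 and Iglc3, so no level of a single lambda gene is given.

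**Figure D3:**
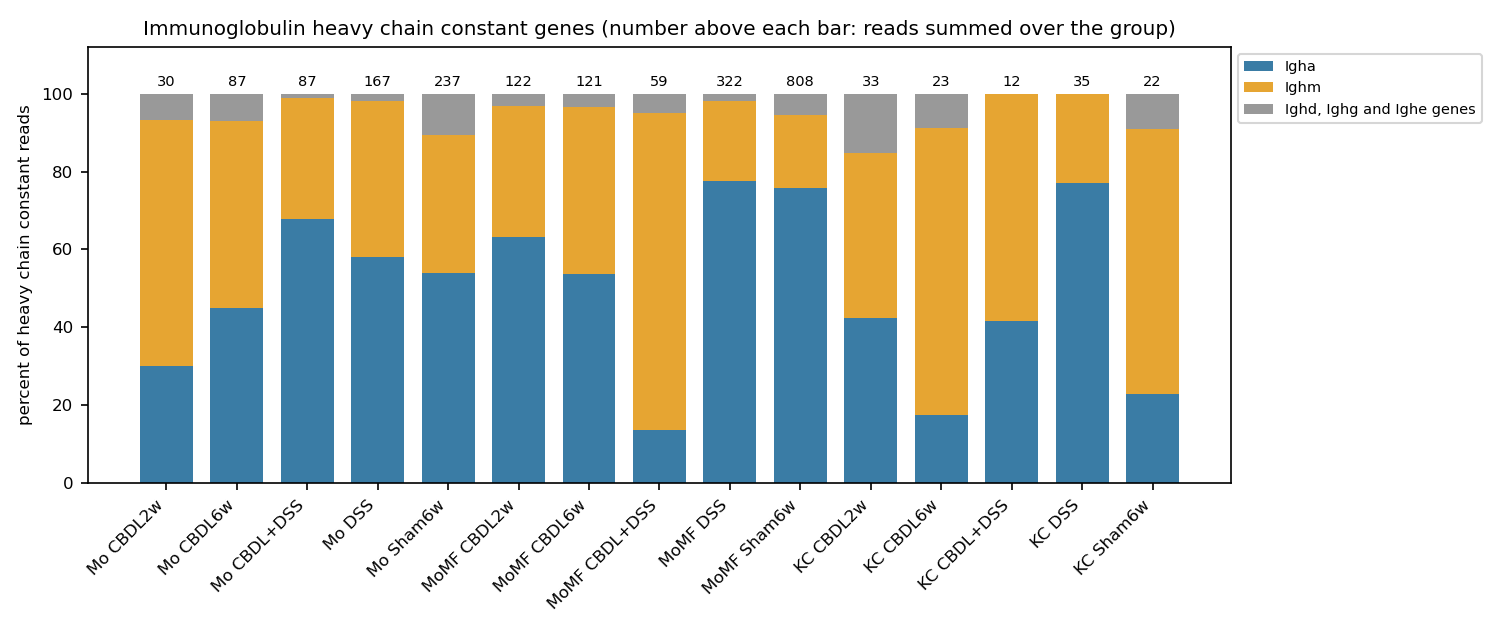
Share of immunoglobulin heavy chain reads, in percent, that came from Igha, from Ighm and from the Ighd, Ighg and Ighe genes together, by group, with the number of reads behind each bar. Igha is the largest share in MoMF DSS (77.64%), KC DSS (77.14% of 35 reads) and MoMF Sham6w (75.74%), among others, and Ighm in MoMF CBDL+DSS (81.36% of 59 reads).

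By level, Igha averaged 14.2 ± 10.7 in MoMF CBDL2w, 16.0 ± 7.24 in CBDL6w, 1.93 ± 0.943 in CBDL+DSS and 58.0 ± 53.6 in DSS, against 168, 393 and 179 in Sham6w, with no overlap between any injured group and Sham6w. All 4 differences passed in limma, from -2.38 for DSS (adjusted p = 0.0464) to -6.35 ± 0.62 for CBDL+DSS (1.15e-06). In MoMF CBDL+DSS Igha was also lower than in CBDL6w (-2.50 ± 0.58, adjusted p = 0.0147) and than in DSS (-3.97 ± 0.58, 0.000128). In Mo, Igha passed for CBDL2w (1.91 ± 2.21, against 51.8 ± 39.2 in Sham6w, -4.34 ± 0.81, adjusted p = 0.000817) and CBDL6w (-2.88, 0.0232). Of the 16 plasma cell genes in the list that held Igha, 6 were tested in each of these fractions, and Igha was the sole one called against Sham6w in any injury group of either. The transcription factors Xbp1 and Prdm1 and the secretory pathway genes Sec11c, Edem1 and Txndc5 did not pass, and CBDL2w differed from Sham6w in MoMF by -0.25 ± 0.55 for Xbp1 and 0.55 ± 0.53 for Prdm1. Immunoglobulin variable genes were nearly unread by this kit, with 4.95, 14.1 and 16.7 in the MoMF Sham6w libraries as their highest values.

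T and NK genes were highest in MoMF, and granule and NK receptor genes led them. Gzma held 29.41% of the class reads in Mo (95 of 323), where the class was lower on average than in MoMF. In MoMF, Gzma stood at 5.04, 4.47, 4.9 and 11.9 in CBDL2w, at 10.3, 10.6, 9.58 and 9.48 in CBDL6w, at 1.84, 1.77, 4.52 and 0 in CBDL+DSS and at 79.5, 45.5, 21.8 and 36.9 in DSS, against 24.8, 61.9 and 56.0 in Sham6w. DSS and Sham6w overlapped, and every library from a ligated group lay below both. Against Sham6w the log2 difference was -2.67 ± 0.52 for CBDL2w (adjusted p = 0.00482), -2.04 for CBDL6w (0.054), -4.14 ± 0.52 for CBDL+DSS (2.84e-05) and -0.09 for DSS.

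The colitis group with ligation was the lowest for this class in MoMF. Gzmb was at 0.63 to 2.24 in CBDL2w, at 0 to 11.2 in CBDL6w and at 0 in all 4 CBDL+DSS libraries, against 31.8, 17.7, 8.51 and 16.5 in DSS and 4.95, 32.6 and 24.6 in Sham6w. Xcl1, a chemokine made by NK cells, was at 0 in all CBDL+DSS libraries, against 17.7, 15.5, 2.84 and 7.76 in DSS and 4.95, 19.6 and 18.7 in Sham6w. Il2rb, the receptor chain for interleukins 2 and 15, stood at 0.92, 0, 0 and 0 in CBDL+DSS, against 20.3, 7.76, 4.73 and 9.7 in DSS and 2.48, 33.7 and 20.6 in Sham6w. Each of these 3 genes was lower in every CBDL+DSS library than in any DSS or Sham6w library, and the share of all genes that did so was not counted. In CBDL6w, Gzmb overlapped with CBDL+DSS at 0. The 3 genes passed the filter only through groups other than CBDL+DSS. Against Sham6w they passed at -4.11 ± 0.79 for Gzmb (adjusted p = 0.00184), -3.74 for Xcl1 (0.00292) and -3.55 for Il2rb (0.00308). These fitted differences rest on the pseudocount of 1, since their CBDL+DSS libraries were at or near 0.

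Klrd1, which pairs with other lectin-like chains to form NK receptors, did not follow Gzma in every group. It stood at 6.3, 2.24, 19.6 and 11.9 in MoMF CBDL2w, at 31.8, 24.1, 12.0 and 20.9 in CBDL6w, at 0.92, 1.77, 0 and 0 in CBDL+DSS and at 10.6, 1.11, 17.0 and 15.5 in DSS, against 2.48, 30.4 and 7.86 in Sham6w. CBDL6w libraries lay inside the wide Sham6w range or just above it, and CBDL+DSS lay below both. The fall was called for CBDL+DSS against Sham6w (-2.70, adjusted p = 0.0323) and against CBDL6w (-3.86 ± 0.73, 0.00343), and the difference of CBDL6w from Sham6w was 1.15 without passing. The call against Sham6w was lost without Sham6w replicate 3 or 4+6 or CBDL+DSS replicate 1, 3 or 4+5 (adjusted p of 0.0504 to 0.145), and that against CBDL6w passed without any single library. Ncr1, an activating receptor of NK cells, averaged 2.06 ± 1.77 in CBDL2w, 6.71 ± 6.49 in CBDL6w, 0.631 in CBDL+DSS and 10.5 ± 2.57 in DSS, against 9.19 ± 8.47 in Sham6w, and passed only for CBDL+DSS against DSS (-2.92, adjusted p = 0.0451), a call that was lost without any 1 of the 8 libraries of these groups (0.0534 to 0.109). Klr genes are a family of close copies, so reads may be split among them.

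Against CBDL6w, the same advanced injury without colitis, 5 of the 11 members tested in MoMF were lower in CBDL+DSS, against 2.07% of all genes: Klrd1, Il2rb (-3.03, adjusted p = 0.0113), Gzma (-2.09, 0.0147), Xcl1 (-2.56, 0.04) and the transcription factor Bcl11a (-2.53, 0.0226). Against DSS, a comparison added after the data were seen, 8 of 11 were lower, against 5.10% of all genes, with Gzma at -4.04 ± 0.48 (adjusted p = 1.02e-05). Leaving out 1 library at a time gave 6 to 7 calls against DSS. The Klrd1 call against DSS was lost in 5 of these cases (adjusted p of 0.066 to 0.0933 in limma). Leaving out CBDL6w replicate 1, 3 or 4 or CBDL+DSS replicate 3 left 3 of the 5 calls against CBDL6w, and leaving out CBDL+DSS replicate 4+5 left 2. The Xcl1 call was lost in 7 of the 8 cases (adjusted p of 0.0738 to 0.137), with CBDL6w replicate 2 as the exception. The difference between the colitis effect with ligation and without it was called for 0 of the 11 members in MoMF by limma and 0 by edgeR, against 2.09% of all genes, and 6 members had an unadjusted p under 0.05, against 15.5% of all genes. Conventional dendritic cell genes were on average also lowest in CBDL+DSS, but highest in CBDL6w, where the T and NK class was not. The 13-gene list, all detected in MoMF, summed to 372 ± 63.1 in CBDL2w, 616 ± 257 in CBDL6w, 288 ± 69.6 in CBDL+DSS and 410.3 ± 77.2 in DSS, against 490.0 ± 154 in Sham6w. The part of these cells was not tested.

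T cell genes proper were almost absent, and the remaining cytotoxic genes were low. Nkg7 and Klre1 were highest in MoMF DSS replicate 1 at 14.1 and 15.0, and Prf1 in MoMF Sham6w replicate 3 at 16.3, while in Mo each of these stayed at 4.54 or less. The adhesion receptor Cd2 stayed at 4.91 or less. Cd3g had 5 reads and Cd3d 17 reads in all 58 libraries, Cd8a 14 and Klrb1c, the NK1.1 antigen gene, 13. Lck, the kinase at the T cell receptor, reached 9.91, 4.34 and 4.91 in MoMF Sham6w and was at 0 in all KC libraries. The T cell receptor constant genes summed to 10.6, 3.33, 8.51 and 7.76 in MoMF DSS and 0, 29.3 and 11.8 in Sham6w. Of 20 other T cell genes, Il7r alone could be tested in Mo and in MoMF and none in KC. Il7r was lower in Mo CBDL2w (0.901, against 17.4 in Sham6w, -3.37, adjusted p = 0.0214) and passed in none of the 4 injury comparisons with Sham6w in MoMF. Of 23 other NK cell genes, 4 were tested in MoMF, where Ccl5, a chemokine of cytotoxic lymphocytes, and the kinase Txk were lower in CBDL2w than in Sham6w, and Ccl5, Txk and the receptor Klrk1 in CBDL+DSS. Of all genes in MoMF, 1.37% were lower in CBDL2w and 5.20% in CBDL+DSS. Ccl5 averaged 7.94 ± 4.83 in CBDL2w, 17.7 ± 9.63 in CBDL6w, 2.66 ± 1.88 in CBDL+DSS and 54.8 ± 23.2 in DSS, against 121 ± 83.6 in Sham6w, and CBDL+DSS differed from Sham6w by -4.87 ± 0.68 (adjusted p = 7.85e-05).

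In Mo the T and NK class summed to 1.02 to 14.46 in the libraries from ligated mice. It summed to 84.41, 2.14, 18.43 and 29.41 in DSS and to 30.17, 39.84 and 53.7 in Sham6w. Only Gzma could be tested. It was at 0 in all 4 CBDL2w libraries, at 0 to 1.66 in CBDL6w, at 2.1, 0, 2.32 and 2.71 in CBDL+DSS and at 29.1, 0, 1.23 and 11.9 in DSS, against 3.94, 10.9 and 29.1 in Sham6w. The ligated groups lay below Sham6w without overlap and DSS spanned it. It passed for CBDL2w (-3.59, adjusted p = 0.0173) and not for CBDL6w (-2.95, 0.0608) or CBDL+DSS (-2.28, 0.14). The CBDL2w call was lost without Sham6w replicate 3+6 (0.0634) or 4 (0.113). As a class the T and NK genes of MoMF reached 17.05% of the Sham6w mean in CBDL2w, 45.32% in CBDL6w, 3.21% in CBDL+DSS and 84.3% in DSS, and those of Mo 10.75% in CBDL2w, 13.78% in CBDL6w, 19.96% in CBDL+DSS and 81.47% in DSS. The DSS shares rested on single libraries: in MoMF the share was 110.92% without Sham6w replicate 3, and in Mo it was 40.4% without DSS replicate 1 and 106.9% without DSS replicate 2.

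Plasmacytoid genes were highest in Mo libraries from mice without ligation. Siglech stood at 0.82, 0, 4.4 and 1.27 in Mo CBDL2w, at 0, 0, 1.66 and 7.57 in CBDL6w, at 0, 0, 2.32 and 4.52 in CBDL+DSS and at 49.9, 34.3, 31.9 and 81.8 in DSS, against 47.2, 91.8 and 80.5 in Sham6w. The 12 libraries from ligated mice lay at or below 7.57 and the 7 others at or above 31.9. The log2 differences from Sham6w were -5.04 ± 0.75 for CBDL2w (adjusted p = 0.000118), -5.03 ± 0.75 for CBDL6w (0.000155) and -5.11 ± 0.75 for CBDL+DSS (0.000153), and that of DSS was -0.60 (0.728). CBDL+DSS was also lower than DSS (-4.51 ± 0.70, adjusted p = 0.0003), as were Ccr9 (-3.12 ± 0.79, 0.0194) and Tcf4 (-0.98 ± 0.25, 0.018), 3 of the 8 members tested, against 3.83% of all genes, in a comparison added after the data were seen. The Ccr9 call was lost without DSS replicate 1, 2 or 4 or CBDL+DSS replicate 1 or 4+5 (adjusted p of 0.0516 to 0.0807), and that of Tcf4 without DSS replicate 2 or CBDL+DSS replicate 1 or 2 (0.0657 to 0.077), so that the count was 1 without DSS replicate 2 or CBDL+DSS replicate 1. In MoMF Siglech stayed between 0 and 17.7.

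The chemokine receptor Ccr9 and the transcription factor Bcl11a, which acts in plasmacytoid and B cell development, were also lower in the ligated Mo groups than in Sham6w, with some overlap between ligated and DSS libraries. Ccr9 stood at 8.2, 0, 0 and 0 in Mo CBDL2w, at 0 in all CBDL6w libraries, at 0, 1.02, 0 and 0.9 in CBDL+DSS and at 16.3, 17.1, 2.46 and 19.3 in DSS, against 14.4, 36.2 and 13.4 in Sham6w. Its ligated groups did not overlap with Sham6w, and it passed for CBDL2w (-3.54 ± 0.85, adjusted p = 0.00673), CBDL6w (-4.34, 0.00176) and CBDL+DSS (-3.85, 0.00476). Bcl11a stood at 4.92, 1.8, 5.28 and 5.07 in Mo CBDL2w, at 4.8, 3.13, 3.31 and 5.05 in CBDL6w, at 8.4, 4.09, 0 and 9.94 in CBDL+DSS and at 10.9, 18.2, 8.6 and 11.0 in DSS, against 14.4, 13.3 and 39.2 in Sham6w. It passed with smaller differences, -2.04 for CBDL2w (adjusted p = 0.0369), -2.05 for CBDL6w (0.042) and -2.11 for CBDL+DSS (0.0342). Each of these 3 Bcl11a calls was lost without any 1 of the 3 Sham6w libraries and without several libraries of the injured group (adjusted p up to 0.201), and the Ccr9 call for CBDL2w without Sham6w replicate 3+6 (0.0618). Klk1, Cd7 and Ly6d had too few reads for a test within Mo: Klk1 stood at 2.72, 7.5, 3.69 and 5.51 in Mo DSS and at 0 in every MoMF library, Ly6d reached 12.9 in Mo and 15.2 in MoMF, and Cd7 was highest in MoMF Sham6w at 4.95, 12.0 and 10.8. In MoMF, Bcl11a stood at 12.9, 3.02, 27.1 and 28.4 in CBDL6w and at 7.35, 1.77, 0 and 0.8 in CBDL+DSS, against 9.91, 9.78 and 19.6 in Sham6w, and CBDL+DSS lay below Sham6w without overlap (-2.40, adjusted p = 0.0282). That call was lost without Sham6w replicate 1+2+5 or 4+6 or CBDL+DSS replicate 3 or 4+5 (0.055 to 0.0887). As a class without Tcf4, the plasmacytoid genes of Mo reached 6.62% of the Sham6w mean in CBDL2w, 5.86% in CBDL6w, 7.59% in CBDL+DSS (5.05% without CBDL+DSS replicate 6) and 71.79% in DSS.

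Tcf4 differed from the rest of its class. It held 84.62% of the class reads in Mo (4303 of 5085) and was well expressed in every library of every fraction, so it is not read as a marker here and the class sums are given without it. In Mo it stood at 159, 166, 96.0 and 110.3 in CBDL2w, at 167, 209, 165 and 177 in CBDL6w, at 90.3, 108, 232 and 205 in CBDL+DSS and at 302, 375, 232 and 274 in DSS, against 429, 501 and 428 in Sham6w. All injured groups lay below Sham6w, with -1.80 ± 0.27 for CBDL2w (adjusted p = 0.000106), -1.33 for CBDL6w (0.00199), -1.61 for CBDL+DSS (0.000414) and -0.63 for DSS (0.202). In MoMF the group that differed was another: Tcf4 averaged 189 ± 38.2 in CBDL2w, 177.5 ± 49.9 in CBDL6w, 184 ± 23.5 in CBDL+DSS and 113 ± 36.9 in DSS, against 251.5 ± 31.7 in Sham6w, and DSS alone passed (-1.22 ± 0.27, adjusted p = 0.0209). It was lost without DSS replicate 2 (0.0539). In KC, too, DSS alone passed (-0.62 ± 0.18, adjusted p = 0.037), with means of 103 in DSS and 159 in Sham6w. That call was lost with equal library totals, and without Sham6w replicate 2, 3 or 4 or DSS replicate 1, 2 or 4.

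Other genes known from plasmacytoid dendritic cells gave part of the same picture in Mo. Of 14 in the table, 5 were tested (Tlr7 passed in no group): Irf8, Bst2, Cox6a2 and Ly6a were lower in CBDL2w and in CBDL+DSS, Bst2 alone in CBDL6w, and none in DSS. Of all genes, 5.71% were lower in CBDL2w, 6.07% in CBDL+DSS and 5.33% in CBDL6w, and 1.59% were called in either direction in DSS. Bst2, an interferon-induced antigen that marks mouse plasmacytoid cells, averaged 6.97 ± 3.92 in CBDL2w, 8.70 ± 0.952 in CBDL6w, 5.35 ± 2.37 in CBDL+DSS and 49.0 ± 19.0 in DSS, against 52.0 ± 20.8 in Sham6w (CBDL+DSS against Sham6w -3.08 ± 0.43, adjusted p = 0.000101). Over all groups Bst2 averaged 17.8 ± 7.34 in MoMF and 21.6 ± 7.2 in KC libraries.

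Endothelial genes were also lower in the ligated Mo groups. The 13-gene endothelial list, with none of the 13 at 0 in Mo, summed to 166 ± 46.2 in CBDL2w, 139 ± 25.6 in CBDL6w, 199.6 ± 25.0 in CBDL+DSS and 910.0 ± 318 in DSS, against 1111 ± 328 in Sham6w. Of the 13, 12 were lower in CBDL2w (5.71% of all genes), 12 in CBDL6w (5.33%) and 11 in CBDL+DSS (6.07%). For DSS 0 passed, where 1.59% of all genes were called in either direction. In MoMF the endothelial list summed to 558 ± 41.0 in DSS and 158 ± 30.9 in Sham6w, while the plasmacytoid genes without Tcf4 summed to 16.4 ± 14.1 in DSS and 46.3 ± 18.8 in Sham6w, with DSS replicate 1 (37.1) inside the Sham6w range. The 14 other plasmacytoid genes summed to 247 ± 86.1 in MoMF DSS and 139 ± 28.7 in Sham6w, without overlap, and 1 of the 4 tested (Ly6a) was higher in DSS, where 1.27% of all genes were. The neutrophil list differed among the Mo controls themselves, with 72.2, 636 and 514 in the 3 Sham6w libraries. The part of endothelial cells or neutrophils in the Mo differences was not tested.

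**Figure D4:**
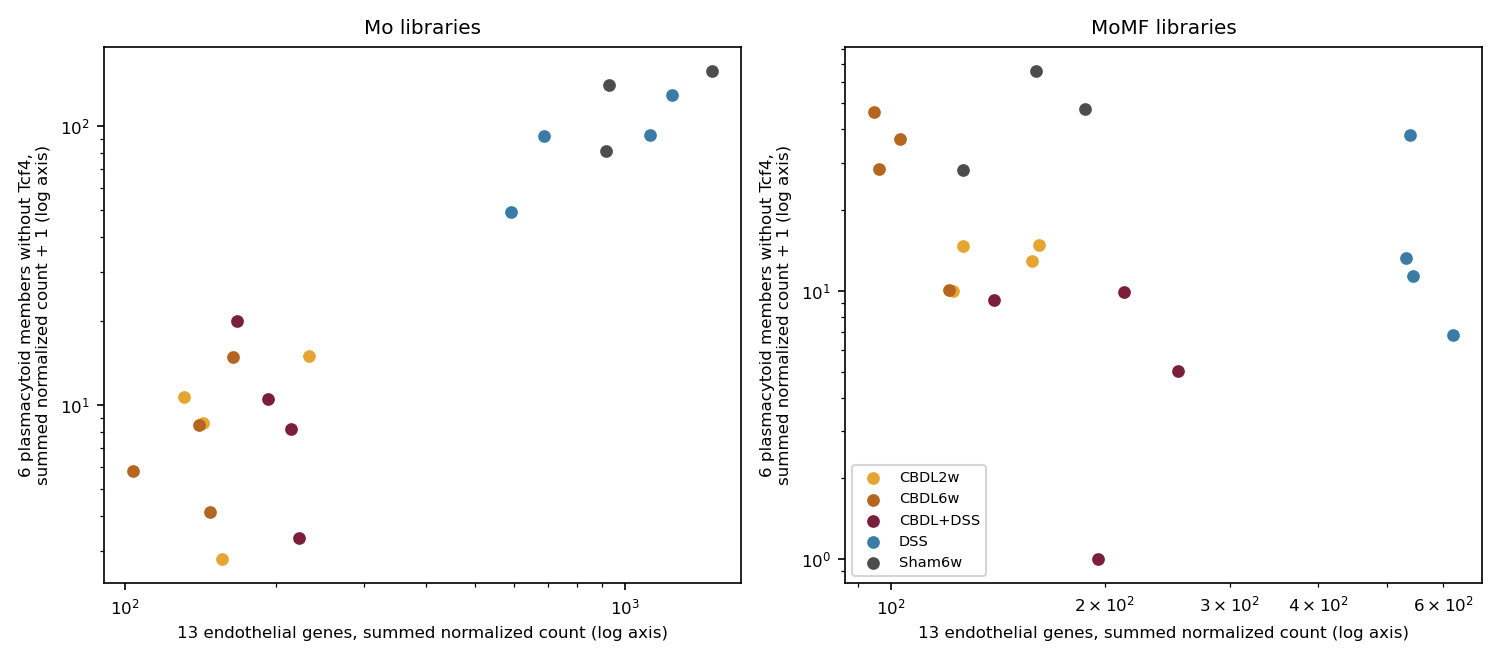
Summed normalized counts of the plasmacytoid genes without Tcf4 (vertical axis) against the 13 endothelial genes (horizontal axis), 1 point per Mo or MoMF library, coloured by injury group. In Mo both sums are high in DSS and Sham6w libraries, and in MoMF the DSS libraries are high on the endothelial axis (558 ± 41.0).

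Set side by side, the members tested were lower in most comparisons with Sham6w. In Mo 8 of 8 were lower in CBDL2w, where 5.71% of all genes were, 7 in CBDL6w (5.33% of all genes) and 7 in CBDL+DSS (6.07%). For Mo DSS limma and edgeR called 0 members, against 1.59% of all genes in either direction, and 4 members had an unadjusted p under 0.05, against 18.0% of all genes. In MoMF 6 of 11 were lower in CBDL2w (1.37% of all genes), 2 in CBDL6w (0.806%), 9 in CBDL+DSS (5.20%) and 2 in DSS (0.806%). Genes such as Siglech, Ccr9 and Gzma passed the filter in Mo only through the groups where they were high, so these counts and the medians describe the members tested and not the whole set. With no filter, where 31 members entered, the calls in Mo were 10 for CBDL2w (3.95% of all genes in either direction), 7 for CBDL6w (3.29%) and 7 for CBDL+DSS (3.25%), and in MoMF 10 for CBDL2w (0.809%), 5 for CBDL6w (0.386%) and 14 for CBDL+DSS (2.10%). The median log2 difference of the members tested was -3.57 in Mo CBDL2w, -2.79 in Mo CBDL6w, -2.46 in Mo CBDL+DSS and -0.83 in Mo DSS, where the median over all genes tested was -0.10, -0.11, -0.07 and -0.03. In MoMF it was -2.52 for CBDL2w, -1.18 for CBDL6w, -3.55 for CBDL+DSS and -0.41 for DSS, with medians over all genes from 0.02 to 0.08. Without Mo Sham6w replicate 3+6 the Mo counts were 5, 3 and 4 for CBDL2w, CBDL6w and CBDL+DSS. In MoMF the count for CBDL2w was 3 without Sham6w replicate 3 or CBDL2w replicate 3, that for CBDL6w was 4 without Sham6w replicate 1+2+5, and that for DSS was 0 without DSS replicate 2 and 1 without DSS replicate 3 or 5+6 or Sham6w replicate 3.

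**Figure D5:**
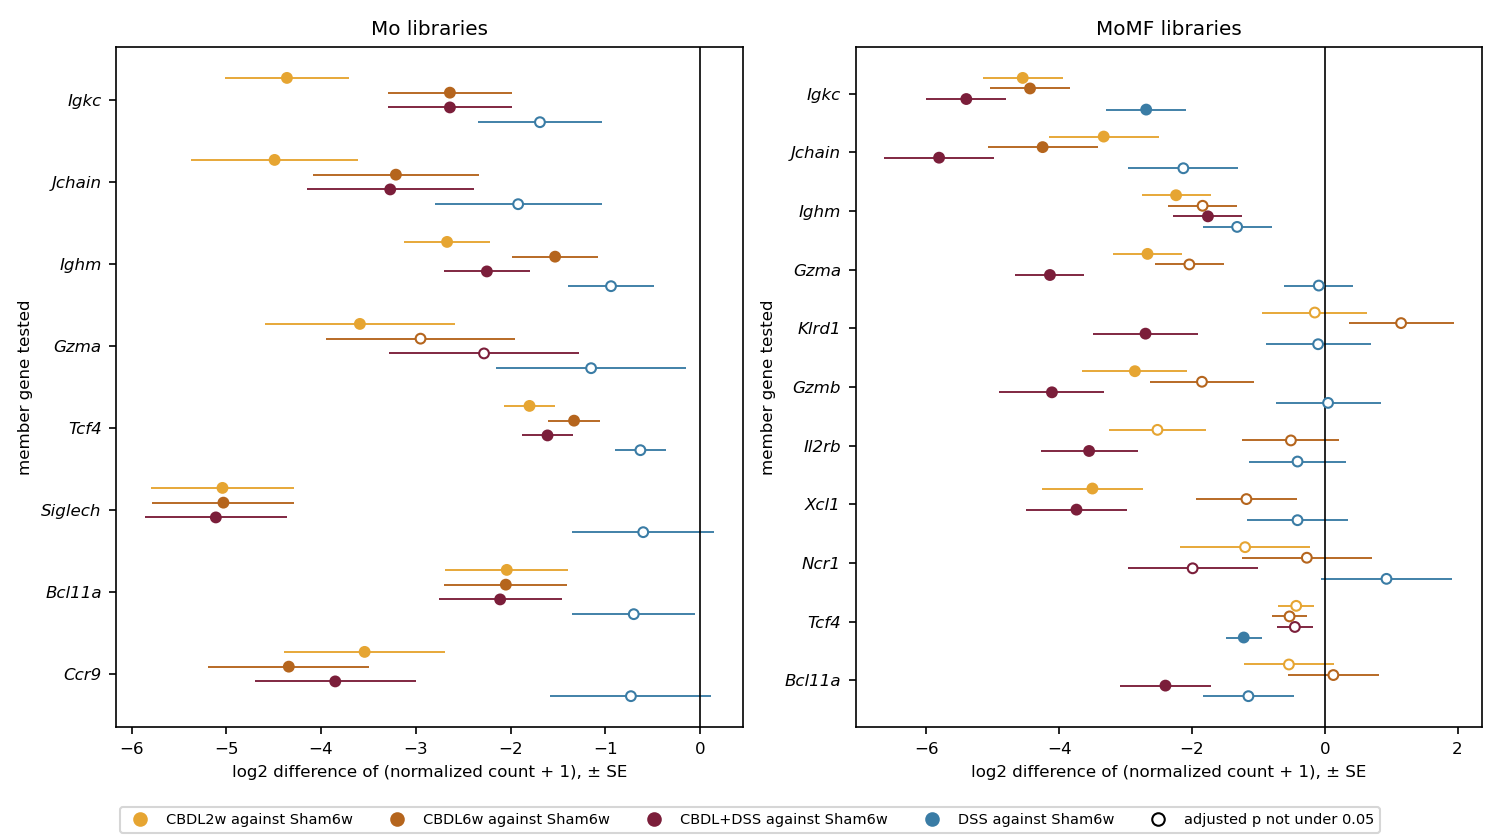
Log2 differences from Sham6w, with standard errors, of the named members in Mo and in MoMF for CBDL2w, CBDL6w, CBDL+DSS and DSS, filled where the adjusted p is under 0.05. The plasmacytoid genes lie far below 0 in ligated Mo groups (Siglech -5.04, -5.03 and -5.11), and the granzymes in MoMF CBDL+DSS (Gzma -4.14, Gzmb -4.11).

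Between the stages of ligation no member passed. CBDL2w against CBDL6w gave 0 calls in Mo, MoMF and KC by limma and by edgeR, where 0%, 0.0823% and 0% of all genes were called. At an unadjusted p under 0.05 there were 2 members in Mo (6.61% of all genes), 2 in MoMF (6.43%) and 0 in KC. CBDL+DSS against CBDL6w in Mo gave 0 calls by either tool and 0 at an unadjusted p under 0.05, with 0.573% of all genes called. In KC libraries 2 members could be tested, Tcf4 and Igkc. Tcf4 in DSS was 1 of 2, where 4.55% of all genes were lower. For CBDL2w, CBDL6w and CBDL+DSS against Sham6w limma and edgeR called 0 in KC, with 0 at an unadjusted p under 0.05, where 2.71%, 3.25% and 3.31% of all genes were called. The B and plasma sum stayed at 2.13 to 23.5 and the T and NK sum at 0 to 11.7 in the 20 KC libraries.

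The genes whose levels ranked libraries most like each class were looked for over the 19 libraries of a fraction, as Spearman correlations given without a p, since the injury groups alone order the libraries and all genes of a library share its depth. Ccl5 was among the nearest to the T and NK sum in MoMF, with 0.893 over the 7 libraries without ligation and 0.797 over the 12 with it, followed by the transcription factor Ets1 (0.75 and 0.694). Igha was the second nearest to the B and plasma sum in MoMF (1.0 and 0.594), after the chaperone gene Dnaja1 (0.964 and 0.629). For the plasmacytoid sum without Tcf4 in Mo the nearest was the endothelial phosphatase Ptprb (0.75 and 0.545), with the semaphorin receptors Plxnc1 (0.821 and 0.51) and Nrp1 (0.821 and 0.469) also among the first. Mo and MoMF libraries with the same group and replicate number had the same highest library in 2 of 4 injury groups for the B and plasma sum, 3 of 4 for T and NK and 3 of 4 for the plasmacytoid sum without Tcf4. For Mo and KC these were 3 of 4, 1 of 4 and 0 of 4, and for MoMF and KC 3 of 3, 1 of 3 and 0 of 3.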

How the data were processed

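The table that the authors deposited gives each of 25307 genes 1 signal in each of 58 libraries, a count normalized with DESeq2 size factors. Per the labels, libraries were made with a 3' tag kit with molecular identifiers. Tools named in the submitters' processing notes, with no order, are RSEM 1.3.1, STAR 2.7.5b, DESeq2 without a version, UMI-tools 1.0.1 and Trimmomatic 0.39 and 0.39-1, on GRCm38.p6. Which annotation was counted is not stated there. All values (100% within 0.01) were whole multiples of the step of their column, which gave back the reads and size factors of 0.4038 to 1.6754. Of the gene identifiers, 25272 were matched to GENCODE M21 symbols and 35 were not. Promoters came from RefSeq.

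With R 4.3.3, limma 3.58.1 with trend and robust options was fitted to log2(normalized count + 1) for genes at 10 or more in at least 3 libraries, with 1 fit per cell type over its 5 groups (6112 genes in Mo, 6079 in MoMF, 6159 in KC) and 1 over all libraries (7555 genes). P-values were two-sided and Benjamini-Hochberg adjusted over all genes of a comparison, with a threshold of 0.05. A fold change on this scale understates that of low genes. No value was imputed and no library dropped. edgeR 4.0.16 on the recovered reads was an alternative. Values by library are given for the 3 members of each class with the highest mean and for members called between injury groups or most between cell types, and of the other lists up to 4 called genes are named. The fits were tested on simulated data. Depth limits precision by counting error: 0 reads over a fraction allow up to 5.32e-05% of its reads in Mo. The members, their classes and the other gene lists were chosen with earlier results of these data known.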

Additional observations from a re-analysis of the deposited data

Results flagged for a closer look

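In 68 checks of a class sum or a single member within a group of 4 libraries, 1 library stood apart from the others in 5 cases. Chance flags about 1 independent check in 20. These checks share libraries, and Jchain is part of the B and plasma sum, so they are not independent. MoMF DSS replicate 1 held a B and plasma sum of 218.93 normalized counts, where the other DSS libraries held 62.09 to 87.02, and its Jchain stood at 72.39, where the others stood at 11.64 to 19.86. The B and plasma sum of KC CBDL2w replicate 1 was 23.52, where the other libraries of its group held 5.16 to 7.72. Igkc in Mo CBDL+DSS replicate 6 was 51.51, where the others stood at 3.09 to 11.25. Tcf4 in MoMF CBDL6w replicate 2 was 251.8, where the others stood at 145.3 to 159.19.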

How the results depend on the processing

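Of 2200 alternative values for 90 log2 differences of single members, 1954 kept their direction and their side of the threshold, 246 kept their direction and no longer passed, and 0 reversed; where a count moved, the cause was not tested. Without the filter on low values the calls numbered 23 for MoMF against KC (13 with it; 10.0% of all genes without it), 14 for Mo against MoMF (8; 4.19%), 10 for MoMF CBDL2w (6; 0.809%), 5 for MoMF CBDL6w (2; 0.386%), 14 for MoMF CBDL+DSS (9; 2.10%), 5 for Mo CBDL+DSS against DSS (3; 1.66%) and 0 for KC DSS (1; 1.11%), where 31 members instead of those past the filter entered the test. edgeR called 4 for Mo against MoMF and 4 for MoMF CBDL6w against Sham6w. Equal library totals gave 0 for KC DSS. A pseudocount of 5 gave 3 for MoMF CBDL+DSS against CBDL6w (5) and 1 for the difference between colitis effects in MoMF (0). Among libraries with a single replicate number, Sham6w kept only replicate 4 in Mo and only replicate 3 in MoMF. Counts against Sham6w from that fit are therefore not given. For MoMF CBDL+DSS against CBDL6w it gave 3. Deviations of same-numbered libraries from their group means correlated weakly (from -0.061 to 0.095). Across cell types within an injury group the median was 0.035 for same-numbered pairs and -0.011 for other pairs. Weak correlations cannot exclude that same-numbered libraries share an animal, and this was not tested. With the replicate number as a block the calls were 0 for KC DSS and 2 for MoMF CBDL+DSS against CBDL6w. In Mo and MoMF the joined Sham6w labels occur in no other group, so the block takes up those libraries. The comparisons with Sham6w then rest on the same single controls, and their counts are not given. The block also sets equal numbers of different injury groups together. Both of these settings are among the 2200 values above.

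Leaving out 1 library at a time gave 9 to 12 calls for Mo against KC, 7 to 9 for Mo against MoMF, 13 to 14 for MoMF against KC, 5 to 8 for Mo CBDL2w, 3 to 6 for Mo CBDL6w, 4 to 7 for Mo CBDL+DSS, 1 to 4 for Mo CBDL+DSS against DSS, 3 to 7 for MoMF CBDL2w (5 without CBDL2w replicate 1), 2 to 4 for MoMF CBDL6w, 0 to 3 for MoMF DSS (1 without DSS replicate 5+6, 2 without DSS replicate 1), 6 to 9 for MoMF CBDL+DSS, 2 to 6 for MoMF CBDL+DSS against CBDL6w (2 without CBDL+DSS replicate 4+5, 3 without CBDL6w replicate 1), 6 to 7 for MoMF CBDL+DSS against DSS, 0 to 1 for KC DSS, 0 to 1 for KC CBDL+DSS against DSS and 0 to 1 for the difference between colitis effects in KC and in MoMF (1 in MoMF without Sham6w replicate 1+2+5). Without Mo Sham6w replicate 3+6 the counts were 5 for Mo CBDL2w, 3 for Mo CBDL6w and 4 for Mo CBDL+DSS, and without MoMF Sham6w replicate 1+2+5 the count was 4 for MoMF CBDL6w. The count for Mo CBDL+DSS against DSS was 1 without DSS replicate 2 or CBDL+DSS replicate 1. The mean B and plasma sum in MoMF ranged from 84.65 (without Sham6w replicate 3) to 139.3. Leaving out immunoglobulins and Jchain took the B and plasma sum in KC to 1.746, and leaving out Tcf4 took the plasmacytoid sum to 43.85 in Mo, 20.62 in MoMF and 2.396 in KC, from 276.9, 199.9 and 145.4. With 118687 to 521954 reads a library, members near 0 cannot be told from absent ones.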
